A study of Mus musculus with 12 samples.

Results

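The regions described here lie in or beside genes of the axon guidance ligand and receptor families and had lost DNA methylation in bone marrow progenitors of Dnmt1 mutant mice. They were taken from the authors' list of 35439 hypomethylated regions by gene symbol (semaphorins, plexins, ephrins, Eph receptors, netrins, Robos, Slits and Unc5 genes) and by a distance to the gene of at most 5000 bp. This left 276 regions at 45 genes: 147 regions at 25 ligand genes, 126 at 19 receptor genes and 3 at Unc5cl, whose symbol matches but whose product is no guidance receptor. The list itself was built on the difference between the genotypes, so the loss at these regions is what selected them, and their differences are given below as a description without a test.

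Methylation was sequenced genome-wide in lineage-negative (lin-) bone marrow cells, from which cells with markers of mature blood lineages have been depleted, of BALB/c mice. The Dnmt1 mutant is written in the labels as dnmt1-/-, whereas the series describes a missense mutation designed after hypomorphic fish alleles with defects of lymphoid development; the controls were wild type. There were 12 samples, 6 mutant and 6 wild type, from 3 replicate numbers per genotype and 2 kits (TruSeq DNA Methylation, which converts with bisulfite, and NEBNext Enzymatic Methyl-seq), and the values came as 1 column per genotype and replicate number, so that n = 3 against 3. Nothing states that replicates came from separate animals, so the spread given is that between these samples. No read depth accompanies the levels. No RNA was used here, so the labelled cell type was not checked by its markers and nothing is said of the activity of any gene.

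Dnmt1 copies CpG methylation onto the newly made strand after replication. Axon guidance proteins steer growing nerve fibres through ligand and receptor pairs: semaphorins signal through plexins (secreted class 3 members with neuropilins), ephrins through Eph receptor tyrosine kinases, netrins through Dcc and the Unc5 receptors, and Slits through Robo receptors. Several of them also act outside the nervous system, such as Sema4d on lymphocytes, Robo4 on endothelium and haematopoietic stem cells, and Ephb4 in veins.

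Few of these regions reached a gene start. Promoter windows of 300 bases, 250 before to 50 after a RefSeq start (GRCm38.p6, the assembly that mm10 names), were present for 59 genes of the families in 75 windows. Of the 45 genes with a listed region 37 had such a window, and Slit1 and Ntn1 were among those without. A listed region covered part of 4 of them, at Unc5cl, Sema4d, Efna3 and Sema4a. These 4 windows are printed 5′ to 3′ with every CG in capitals, because they are the windows of the families that a listed region reached. That of Sema6b follows as a contrast, chosen after its values were seen. A start can also be reached outside these windows. The Sema4g region (chr19:44987708-44988828) contained the 5′ end of the gene span but lay outside the Sema4g window. Its means were 26.9% in the mutant and 56.9% in wild type. CG reads the same on both strands, so each capital pair is a CpG on either strand.
Unc5cl, chr17:48454651-48454950, plus strand: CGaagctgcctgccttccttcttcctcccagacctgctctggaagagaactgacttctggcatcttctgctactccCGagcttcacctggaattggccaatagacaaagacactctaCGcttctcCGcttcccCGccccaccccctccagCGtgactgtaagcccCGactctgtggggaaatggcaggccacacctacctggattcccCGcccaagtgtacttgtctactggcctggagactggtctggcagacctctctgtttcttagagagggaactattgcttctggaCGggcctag
Sema4d, chr13:51748761-51749060, minus strand: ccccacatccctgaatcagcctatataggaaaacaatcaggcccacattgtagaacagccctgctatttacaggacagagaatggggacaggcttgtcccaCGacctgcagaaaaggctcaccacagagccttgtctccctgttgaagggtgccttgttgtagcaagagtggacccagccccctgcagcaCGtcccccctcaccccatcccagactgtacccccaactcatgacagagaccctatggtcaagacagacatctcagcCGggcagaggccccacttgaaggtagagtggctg
Efna3, chr3:89322890-89323189, minus strand: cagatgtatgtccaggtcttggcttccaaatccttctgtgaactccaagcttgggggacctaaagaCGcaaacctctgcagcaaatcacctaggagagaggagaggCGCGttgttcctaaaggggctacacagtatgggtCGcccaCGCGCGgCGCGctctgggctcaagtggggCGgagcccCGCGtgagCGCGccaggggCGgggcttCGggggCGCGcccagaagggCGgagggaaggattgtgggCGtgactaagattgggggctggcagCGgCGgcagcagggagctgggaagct
Sema4a, chr3:88461133-88461432, minus strand: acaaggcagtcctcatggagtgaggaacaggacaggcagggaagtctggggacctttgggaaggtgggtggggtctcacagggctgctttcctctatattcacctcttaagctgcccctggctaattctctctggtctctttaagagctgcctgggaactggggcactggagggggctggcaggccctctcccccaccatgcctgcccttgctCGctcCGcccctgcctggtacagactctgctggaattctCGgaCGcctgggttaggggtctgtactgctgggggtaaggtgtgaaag
Sema6b, chr17:56140294-56140593, minus strand: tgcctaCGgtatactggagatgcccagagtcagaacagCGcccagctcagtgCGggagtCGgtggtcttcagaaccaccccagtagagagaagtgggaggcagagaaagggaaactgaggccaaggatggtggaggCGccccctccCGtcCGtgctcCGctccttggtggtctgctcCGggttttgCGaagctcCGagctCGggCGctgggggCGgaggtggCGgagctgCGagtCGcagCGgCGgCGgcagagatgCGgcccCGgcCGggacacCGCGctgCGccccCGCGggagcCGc

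The windows of Unc5cl and Sema4d lay wholly inside a listed region and held 9 and 3 CG. At least as many CG stood in 45.8% (for Unc5cl) and 76.7% (for Sema4d) of all 32851 RefSeq windows of the same length. The Efna3 window was CG-rich, with 22 CG (at least as many in 23.1% of windows), but its listed region covered only bases 1 to 70, which hold 1 CG. The Sema4a window had 4 CG (68.6% of windows held as many or more), and bases 255 to 300, with 1 CG, were in the region. The Sema6b window had 29 CG, reached by 12.9% of windows. The candidate region that touched it stood at 0.741% in the mutant and 0.185% in wild type, so there was almost no methylation to lose. Over the 75 windows of the families the median was 19 CG, against 7 over all windows, and 56 windows (74.7%) held 10 CG or more, against 43.5% of all windows.

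Candidate regions that the authors tabulated touched 14 of the 75 windows, at 11 genes, 1 of them Unc50, which matches by symbol only. At guidance gene windows with 20 CG or more, the unlisted candidate regions had wild-type levels under 20% except 1 at Sema4b. At Sema4b (26 CG) both candidate regions fell by limma at an adjusted p under 0.05, with means of 47.8% in the mutant against 67.6% in wild type, and 3.36% in the mutant against 10.97% in wild type. At Ephb3 (23 CG) 1 of the candidate regions fell, with 8.74% in the mutant and 19.9% in wild type, while the other, with 2.14% in the mutant and 8% in wild type, was not called. Efna1 (20 CG), Efnb2 (35 CG) and Sema4c (30 CG) had candidate regions under 4% in both genotypes and were not called in either direction.

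The product of Unc5cl is a death-domain protein of inflammatory signalling and not a netrin receptor. Its start region (chr17:48454265-48455340, 19 CpGs) had methylation levels of 17.8, 20.7 and 32.8% in the 3 mutant columns, against 72.4, 64.6 and 71.4% in the 3 wild-type columns. The groups were far apart, and the difference of -45.7 points was the greatest among the 16 regions near a start. Sema4d encodes the lymphocyte semaphorin that binds Plxnb1. Its region over the printed window (chr13:51748736-51750131, 17 CpGs) had 44.5, 49.8 and 48.5% in the mutant, against 70.9, 76.5 and 68.7% in wild type. This window belongs to an internal start, and the midpoint of the region lay 44.2 kb from the 5′ end of the gene span. Every mutant column lay below every wild-type column.

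The GPI-anchored ephrin gene Efna3 had 31.0, 31.0 and 30.7% in the mutant, against 65.2, 66.1 and 55.7% in wild type, at a region of 10 CpGs beginning upstream of the printed start (chr3:89323120-89324160). The mutant columns nearly coincided, and the wild-type spread came from its replicate 3. Sema4a, a transmembrane semaphorin also active on T cells, had 53.1, 55.0 and 52.4% in the mutant, against 76.1, 72.0 and 77.1% in wild type (chr3:88460366-88461178, 16 CpGs), again without overlap.

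Across all 276 regions the mean methylation level was 44.1, 46.0 and 48.2% in mutant replicates 1 to 3, against 75.2, 75.8 and 75.9% in wild-type replicates 1 to 3. The mutant averaged 46.1% ± 2.07 and wild type 75.6% ± 0.415 (SD, n = 3 each). The mean difference was -29.5 points, a relative change of -39.0%, and the median over regions was -27.1 points with quartiles of -33.8 and -23.4. Single regions ranged from -65.5 to -20.02 points.

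In each of the 276 regions all mutant columns were below all wild-type columns, and each was called lower by limma at a Benjamini-Hochberg adjusted p under 0.05. Over all 107115 candidate regions 94.3% were separated in this way, 93.5% were called lower and 0.0485% were called higher. Since the list was chosen on this contrast, nothing is read from the full count among the members. The same holds for the separation of the columns at single regions and in family means. The other 26678 listed regions within 5000 bp of a gene had 48.4% ± 2.37 in the mutant and 76.7% ± 0.282 in wild type (SD, n = 3 each), a mean difference of -28.3 points. The guidance regions held a median of 13 CpGs over 748 bp, against 12 CpGs over 722 bp for those others. A loss of at least 40 points was seen at 30 guidance regions (10.9%), against 8.68% of the others, and 88 (31.9%) had a q-value of the region caller metilene under 0.05 in the authors' deposited list, against 24.7% of the others. Of the 30 regions with a loss of at least 40 points, 9 were at Slit1 and 2 at Unc5cl. Slit1 alone held 12.7% of the members, and without it the mean difference was -28.9 points. Without Slit1 the share with a loss of at least 40 points was 8.71%, near the 8.68% of the others. The share with a metilene q under 0.05 was then 31.5%.

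**Figure D1:**
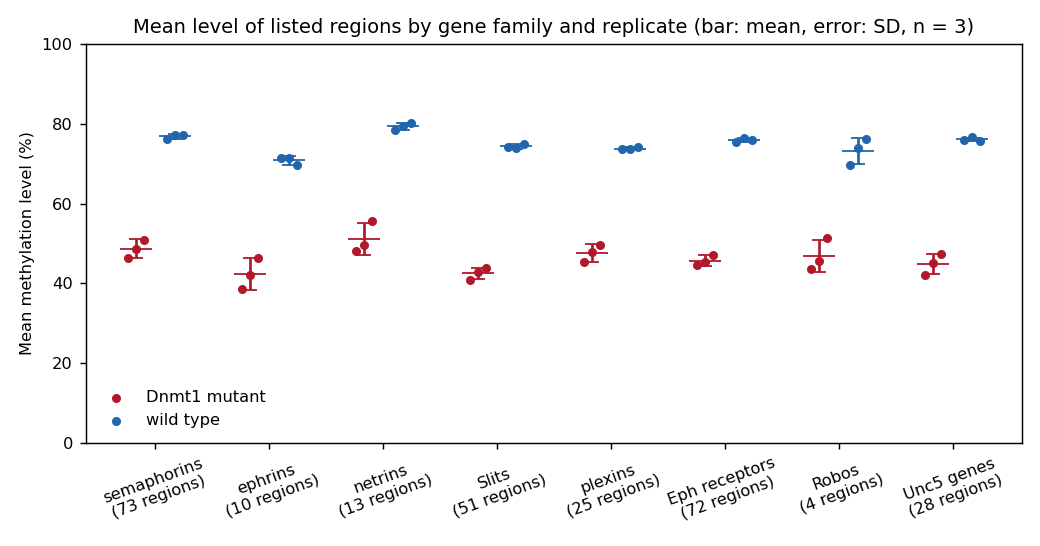
Mean methylation level (%) of the listed regions of each of the 8 gene families, with Dnmt1 mutant replicates in red left of wild-type replicates in blue; bars are means and error bars SD, n = 3. The family means lie between 42.4 and 51.1% in the mutant, against 70.8 to 79.4% in wild type. The regions were listed for this difference, so the gap between the genotypes follows from the selection.

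Among the ligands, the semaphorins (secreted or membrane-bound cues with a sema domain) had 73 regions at 15 of 20 genes, with a mean of 48.7% ± 2.33 in the mutant and 76.9% ± 0.591 in wild type (SD, n = 3 each). The ephrins (ligands of Eph receptors, tethered to the membrane) had 10 regions at 5 of 8 genes, with 42.4% ± 3.93 in the mutant and 70.8% ± 1.04 in wild type. The netrins had 13 regions at 3 of 4 genes, with 51.1% ± 3.92 in the mutant and 79.4% ± 0.892 in wild type. These ligand families differed by -28.2, -28.4 and -28.3 points, closer to each other than the spread of their mutant replicates. The Slits (secreted Robo ligands) had 51 regions at only 2 of 3 genes, with 42.5% ± 1.45 in the mutant and 74.3% ± 0.642 in wild type, a difference of -31.8 points.

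Among the receptors, the plexins (semaphorin receptors) had 25 regions at 6 of 9 genes and the smallest mean difference of the 8 families, -26.2 points, with 47.6% ± 2.22 in the mutant and 73.8% ± 0.352 in wild type. The Eph receptors had 72 regions at 9 of 14 genes, with 45.7% ± 1.39 in the mutant and 75.9% ± 0.51 in wild type. The Unc5 genes, Unc5cl included, had 28 regions at 3 genes, with 44.9% ± 2.58 in the mutant and 76.1% ± 0.461 in wild type. Eph receptors and Unc5 genes thus differed by -30.2 and -31.2 points. The Robos had only 4 regions, at Robo3 and Robo4, with 46.8% ± 4.04 in the mutant and 73.2% ± 3.33 in wild type.

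Regions at ligand genes differed by -29.5 points on average, and those at receptor genes, Unc5cl left out, by -29.3 points. Of the Unc5 regions 15 of 28, the 3 of Unc5cl among them, and of the ephrin regions 5 of 10 had a metilene q under 0.05. Of the plexin regions 6 of 25 and of the semaphorin regions 19 of 73 did. Over the other listed regions within 5000 bp of a gene the share was 24.7%. The median CpG count per region was 18.5 for Unc5 genes, 16.5 for ephrins, 11 for plexins and 13 for semaphorins. Whether the families differ was not tested.

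**Figure D2:**
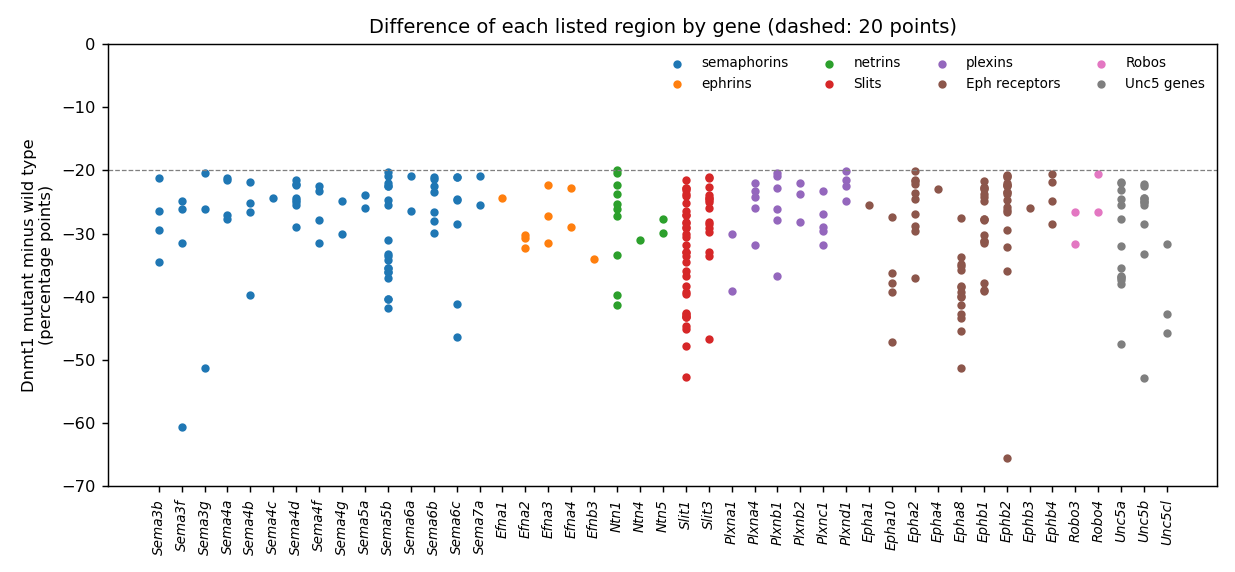
Difference in methylation level (percentage points, Dnmt1 mutant minus wild type, replicate means) of each of the 276 listed regions, 1 point per region, by gene and coloured by family; the dashed line marks the 20 points that bound the list. Most points lie between -20 and -40; Ephb2 at -65.5 and Sema3f at -60.7 reach lowest, and Slit1 has the densest column with 35 regions.

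The number of regions per gene was uneven. There were 10 genes with 10 or more regions, which held 165 of the 276 regions, and 7 genes with 1 region each. Slit1 led with 35 regions and 522 CpGs, followed by Sema5b with 19, Ephb2 with 18, Ephb1 with 17, Slit3 with 16 and Epha8 with 15. Unc5a had 14, Unc5b 11, and Epha2 and Ntn1 10 each. In the plexins the gene with the most regions was Plxnb1, with 6, and in the ephrins Efna2 and Efna3 had 3 each.

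The single region with the greatest loss lay in Ephb2, the receptor tyrosine kinase for B-class ephrins (chr4:136833780-136834366, 18 CpGs, 1646 bp from the nearest RefSeq start). Its methylation level was 16.5, 17.7 and 21.0% in the mutant, against 84.6, 80.6 and 86.4% in wild type. All mutant columns lay far below all wild-type columns, and the difference was -65.5 points. The other 17 regions of Ephb2 differed by at most -36.0 points, and the gene's mean was 52.6% ± 2.95 in the mutant and 79.8% ± 0.353 in wild type (SD, n = 3 each).

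Sema3f, a secreted semaphorin that binds neuropilin-2, held the next loss in size, near the far end of the gene (chr9:107682528-107682947, 14 CpGs, 27.7 kb from the 5′ end). The mutant columns had 23.2, 12.3 and 7.15%, against 73.5, 75.5 and 75.7% in wild type. The mutant columns differed among themselves, with replicate 1 highest and replicate 3 lowest, while the wild-type columns nearly coincided. The difference was -60.7 points, and the relative loss of -81.0% was the largest of any member.

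The netrin receptor gene Unc5b had 31.4, 25.6 and 32.4% in the mutant, against 83.6, 85.6 and 79.0% in wild type, at 10 CpGs (chr10:60780200-60780466). Slit1, which encodes a Robo ligand of the nervous system, had 20.8, 24.7 and 23.6% in the mutant, against 79.6, 75.1 and 72.7% in wild type, at 13 CpGs (chr19:41656732-41657220). Both regions lay deep in the gene, and their differences were -52.9 and -52.8 points with no overlap between genotypes.

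Epha8, an Eph receptor for A-class ephrins, had 28.4, 35.0 and 26.0% in the mutant, against 81.0, 80.05 and 82.2% in wild type, at 23 CpGs (chr4:136947066-136948464). The secreted semaphorin gene Sema3g had 24.1, 18.3 and 28.3% in the mutant, against 73.3, 76.4 and 74.8% in wild type, at 13 CpGs (chr14:31227856-31228176). Each differed by -51.3 points, with the wider spread among the mutant columns. Ephb2, Sema3f, Unc5b, Slit1, Epha8 and Sema3g were the 6 members past 50 points.

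Below them came a further Slit1 region, the netrin receptor gene Unc5a, Epha10, whose product lacks kinase activity, and Slit3. The Slit1 region (chr19:41678859-41679227) had 23.8, 23.7 and 17.8% in the mutant, against 72.7, 65.6 and 70.6% in wild type. Unc5a (chr13:54963814-54965175) had 22.5, 23.2 and 30.8% in the mutant, against 68.2, 74.5 and 76.4% in wild type. These 2 regions differed by -47.8 and -47.5 points, about as much as Epha10 at -47.2 points. Epha10 (chr4:124913688-124914971) had 24.7, 39.9 and 31.2% in the mutant, against 77.2, 81.0 and 79.1% in wild type. Slit3 (chr11:35544301-35545094) had 15.8, 15.5 and 16.2% in the mutant, against 67.1, 51.1 and 69.5% in wild type. Here the mutant columns nearly coincided, and the wild-type spread came from replicate 2, which was low.

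**Figure D3:**
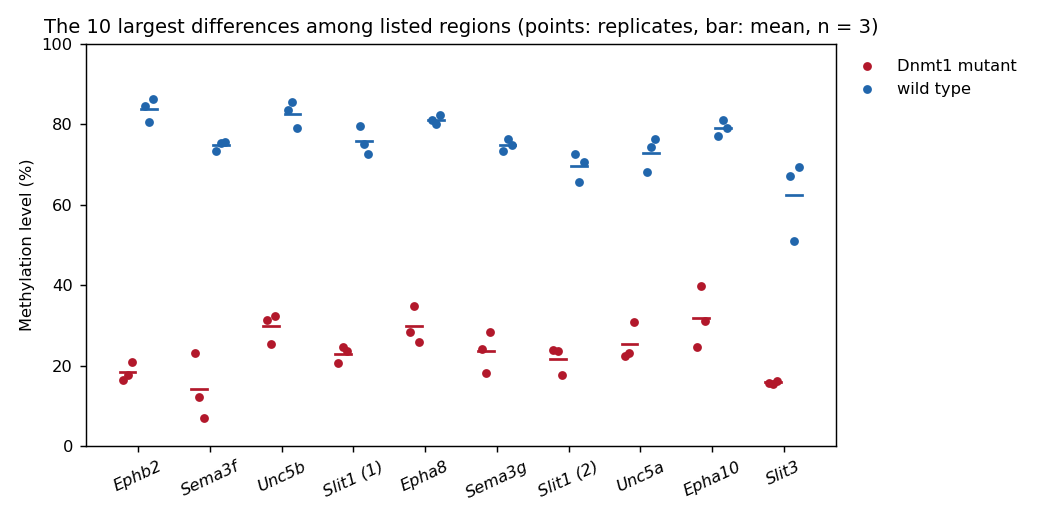
Methylation level (%) of the 10 member regions with the greatest loss, with the 3 Dnmt1 mutant replicates in red left of the 3 wild-type replicates in blue and bars for the means (n = 3). Mutant points run from 7.15 to 39.9% and wild-type points from 51.1 to 86.4%. The regions were chosen for their loss, so the gap between the genotypes follows from the selection.

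The families without a region in that top 10 reached smaller losses. Ntn1, the best-studied netrin, had 28.4, 24.9 and 27.1% in the mutant, against 67.5, 70.7 and 66.1% in wild type, 116 kb from its 5′ end (chr11:68270280-68271484). Plxna1, a receptor of class 3 semaphorins, had 37.7, 41.0 and 37.2% in the mutant, against 79.3, 76.8 and 77.0% in wild type (chr6:89354864-89355084). Both were tight within each genotype, with differences of -41.3 and -39.1 points. Efnb3, a transmembrane ephrin of the spinal midline, had 23.7, 29.6 and 31.9% in the mutant, against 64.4, 62.5 and 60.3% in wild type (chr11:69556716-69558380). Robo3, a receptor of commissural axons, had 28.0, 20.1 and 33.7% in the mutant, against 56.9, 62.8 and 57.2% in wild type (chr9:37429473-37429780). Their differences of -34.0 and -31.7 points also left the genotypes apart.

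Slit1 had listed regions in each 25% of its span. Its 35 regions covered 20.7% of a span of 149 kb and averaged 38.4% ± 1.13 in the mutant and 72.1% ± 0.537 in wild type (SD, n = 3 each), a difference of -33.7 points. Of these regions 9 had lost at least 40 points and 12 had a metilene q under 0.05. Over the first 25% of the span, counted from the 5′ end, 7 regions differed by -35.0 points on average. Between 25 and 50% of the span 12 regions differed by -34.6 points, between 50 and 75% 11 regions by -34.0, and beyond 75% 5 regions by -29.0 points. The stretch beyond 75% was also the most methylated in both genotypes, with 51.7% in the mutant and 80.7% in wild type.

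**Figure D4:**
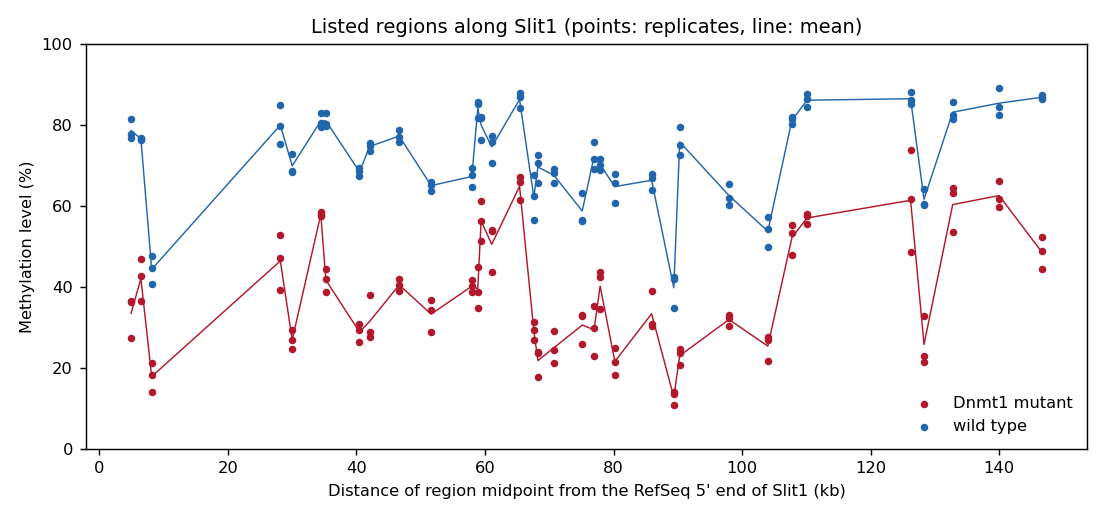
Methylation level (%) of the 35 listed regions of Slit1 by the distance of the region midpoint from the 5′ end of the gene (kb), with Dnmt1 mutant replicates in red and wild-type replicates in blue; points are replicates and lines join the means. The mutant line stays below the wild-type line throughout and both dip at the same regions, among them 1 near 8 kb and 1 near 89 kb, where the means were 12.8% in the mutant and 39.8% in wild type.

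Slit3 was unlike Slit1 in its spacing. Its 16 regions were spread over a span of 587 kb and averaged 51.5% ± 2.99 in the mutant and 79.2% ± 0.931 in wild type, a difference of -27.6 points. One of them (chr11:35616791-35617106, 11 CpGs) contains the hairpin of Mir218-2, a microRNA gene inside Slit3. It had 63.5, 56.5 and 63.8% in the mutant, against 85.8, 85.2 and 86.7% in wild type. The groups were again separate, with a loss close to the average of the gene. The mature sequence is shown because it ties a listed region to a microRNA; the seed, bases 2 to 8, is in capitals.
mmu-miR-218-5p: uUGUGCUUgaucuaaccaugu
The same mature sequence is also encoded by Mir218-1 within Slit2, a gene without a listed region.

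Epha8 was the most densely covered of the genes with many regions. It had 15 regions, 1 of them upstream of the span and 1 downstream. Those inside the gene covered a length equal to 53.5% of the 27.4 kb span. All 15 regions together averaged 35.1% ± 2.33 in the mutant and 74.2% ± 0.57 in wild type (SD, n = 3 each), and differed by -27.6 to -51.3 points. Their mean difference of -39.2 points was the greatest of any gene with 5 or more regions. Sema5b, a transmembrane semaphorin with thrombospondin repeats, had all its 19 regions beyond 25% of its span from the 5′ end, with a mean difference of -31.2 points.

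Sema6c, a transmembrane semaphorin of class 6, had 5 adjoining regions within 723 bp (chr3:95172459-95173182), which held 73 CpGs and were at most 11 bp apart. From the first to the last in genome order they had 57.4, 27.9, 25.3, 22.7 and 7.96% in the mutant, against 85.9, 68.9, 49.9, 69.0 and 29.0% in wild type. The level thus declined along the run in the mutant, and the last region was the least methylated member in both genotypes. Its columns were 6.80, 8.27 and 8.80% in the mutant, against 24.0, 30.3 and 32.8% in wild type.

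The highest wild-type level was at the opposite end of the range. It belonged to Sema3b, a secreted semaphorin, with 62.2, 63.5 and 75.8% in the mutant, against 91.8, 92.2 and 96.9% in wild type (chr9:107599848-107600246). By wild-type level, 12 regions were under 50% and lost 24.9 points on average, 137 lay between 50 and 80% and lost 32.4 points, and 127 were at 80% or more and lost 26.9 points. The relative changes of these groups were -60.8, -46.4 and -31.5%, so a smaller share of the methylation was lost where wild type was higher. The loss is bounded by the wild-type level itself and by the 20 points of the list, so this order is in part set by the selection. Mutant levels under 20% were found at 15 regions of 13 genes, 2 each at Epha2 and Slit1.

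By place, 247 regions at 44 genes lay in the gene body, 16 at 15 genes within 1000 bp of a start, 7 upstream and 6 downstream. Gene body means a distance of 0 in the authors' list, away from a start. Regions near a start had 41.3% ± 2.09 in the mutant and 69.8% ± 1.45 in wild type, and gene-body regions had 46.5% ± 2.04 in the mutant and 76.2% ± 0.405 in wild type (SD, n = 3 each). Both levels were lower near a start, and the differences of -28.4 and -29.7 points were close. Along the RefSeq gene spans the midpoints were spread in like numbers, with 58 in the first 25% of the span, 69 between 25 and 50%, 60 between 50 and 75% and 71 beyond 75%. A further 18 lay outside the RefSeq span, among them regions of Ephb4 and Ntn1 counted as gene body by the authors' distance. Exons and introns were not told apart here.

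Beyond the 4 genes whose windows are printed, the regions near a start belonged to Efna2, Epha1, Epha2, Epha8, Plxnb1, Plxnb2, Robo4, Sema3b, Sema4b, Sema4g and Sema6b, with a further one at Sema4d. Sema4b, a transmembrane semaphorin, differed most among them, with 39.5, 44.3 and 34.6% in the mutant, against 81.8, 69.0 and 86.8% in wild type, 609 bp from a start (chr7:80187479-80187825). Robo4, the Robo of endothelium and blood stem cells, had 27.1, 35.8 and 38.9% in the mutant, against 50.4, 62.8 and 68.4% in wild type, 761 bp from its start (chr9:37402733-37403272). The wild-type columns varied widely at these 2 regions, with SDs of 9.19 points at Sema4b and 9.20 points at Robo4. The mutant SDs were smaller, at 4.88 and 6.10 points. The genotypes did not meet, and the differences were -39.7 and -26.6 points. The region of Epha2 upstream of its start was low in both genotypes, with 8.67, 11.7 and 13.3% in the mutant, against 30.3, 34.2 and 42.8% in wild type (chr4:141299846-141300345). The remaining regions near a start differed by -35.1 points (Epha8) to -20.4 points (Plxnb1).

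Among the 5 members with the most CpGs, Epha10 had 59 CpGs, 3588 bp from the nearest start, with 34.1, 34.9 and 28.8% in the mutant, against 71.0, 71.3 and 64.4% in wild type (chr4:124885373-124886787). Efna2, a GPI-anchored ephrin, had 46 CpGs, with 17.8, 19.6 and 19.2% in the mutant, against 51.4, 47.0 and 48.8% in wild type (chr10:80185095-80187381). The Efna2 columns were close together within each genotype, whereas replicate 3 of Epha10 was the lowest in both. The differences were -36.3 points for Epha10 and -30.2 points for Efna2, without overlap. The other CpG-rich members, in Unc5a (58 CpGs), Sema3g (56 CpGs) and Ephb2 (50 CpGs), differed by only -24.6, -20.4 and -21.1 points.

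The mutant columns were further apart than the wild-type columns. The SD between mutant replicates exceeded that between wild-type replicates at 181 of 276 regions, with medians of 4.25 points in the mutant and 2.85 points in wild type. Mutant replicate 1 was the lowest mutant column at 158 regions and replicate 3 the highest at 147. The same order held for the mean of all 107115 candidate regions, at 58.3, 60.6 and 62.8% in mutant replicates 1 to 3, against 78.1, 78.6 and 78.8% in wild-type replicates 1 to 3. Leaving out each column in turn gave mean differences over the members between -28.5 and -30.6 points. The widest mutant spread was at a region of Epha2, with 61.3, 36.7 and 31.7% in the mutant, against 78.0, 80.8 and 81.9% in wild type, where replicate 1 was the highest. Next came Sema5b with 30.8, 51.8 and 58.5% in the mutant, against 80.5, 84.1 and 87.8% in wild type. Slit1 followed with 48.6, 61.7 and 73.9% in the mutant, against 86.1, 88.1 and 85.2% in wild type, both with replicate 1 lowest.

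The edge of the list at 20 points did not mark a step in the values. Just inside it were regions of Plxnd1 and Epha2, both at -20.07 points, and Ntn1 at -20.02 points. Just outside it were candidate regions of Plxnc1 at -19.97 points and of Unc5b and Efna3, both at -19.96 points. A further 8 candidate regions of these genes were past -20 points by the replicate columns yet not in the list, 2 of them at Ntn1.

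Of the 802 candidate regions within 5 kb of a gene of these families, 299 were in the authors' list and 503 were not. Of those 503, 452 (89.9%) fell in the mutant at a limma adjusted p under 0.05, close to the 90.3% of all candidate regions in neither list. Their median difference was -13.5 points, the same as the median of -13.5 points over all unlisted candidate regions. None was called higher by limma with Benjamini-Hochberg adjustment, against 0.067% of all unlisted regions. At an unadjusted p under 0.05 the count was also 0, and on a logit scale it was 1. Of the 51 regions called in neither direction, 30 had a wild-type level under 20%. Mutant columns all above wild-type columns were seen at 1 region, in Sema4c (chr1:36557603-36557683), where the mutant averaged 1.93% and wild type 0.15%.

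Listed regions were found at 44 of the 66 guidance genes of these families. The genes without one were 5 semaphorins (Sema3a, Sema3c, Sema3d, Sema3e and Sema6d), 5 Eph receptors (Epha3, Epha5, Epha6, Epha7 and Ephb6), the ephrins Efna5, Efnb1 and Efnb2, the plexins Plxna2, Plxna3 and Plxnb3, Robo1, Robo2, Slit2, Unc5c, Unc5d and Ntn3. The 44 genes with a listed region were shorter, with a median span of 27.7 kb, against 255 kb for the 22 without. They held 761 candidate regions in all, against 29, and pooled over span 17.4 per 100 kb, against 0.358 per 100 kb. Listed regions are themselves candidate regions, so the contrast in these counts is in part set by how the genes were split. Of the 22 genes without a listed region, 11 had no region in the authors' table at all and 3 were on chromosome X.

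Ephb2, with a span of 189 kb, had 64 candidate regions, whereas Robo1, with 1020 kb, had 5 and Robo2, whose span is 1555 kb, had none. A listed region was present at 29 of 35 genes of up to 50 kb, at 11 of 14 genes of 50 to 200 kb and at 4 of 17 longer genes, Slit3 among them. Why long genes held few of the candidate regions that the authors tabulated was not tested.

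**Figure D5:**
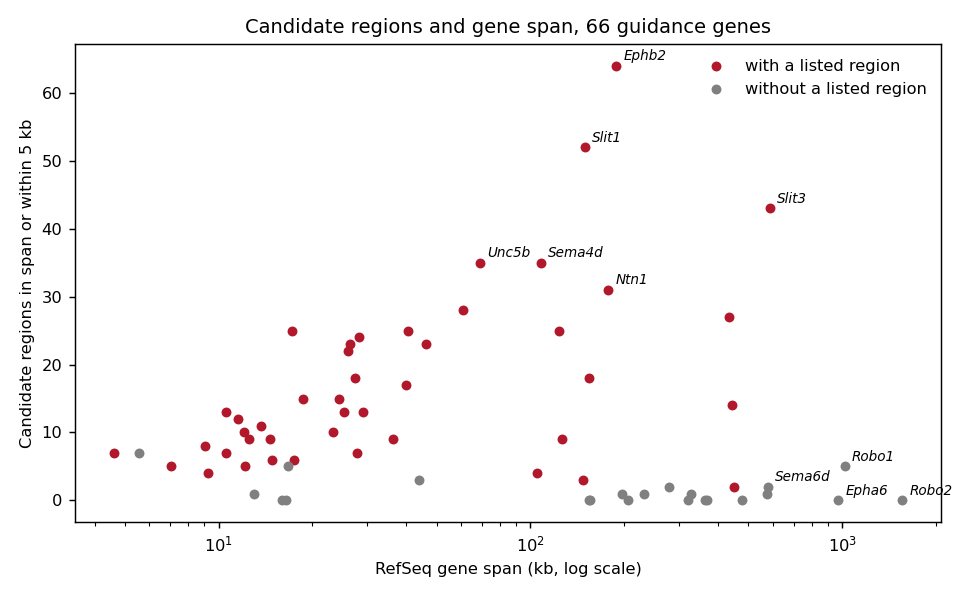
Number of candidate regions within 5 kb of the gene span against the RefSeq span (kb, log scale) for 66 guidance genes, with genes that have a listed region in red and genes that have none in grey. Ephb2 (64), Slit1 and Slit3 (43) stand highest, and most of the genes longer than 200 kb lie near 0, Robo2 at 1555 kb with none.

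The same reading was made for proteins that work with these ligands and receptors. Of 19 genes of co-receptors, other guidance receptors and 3 further cues (Rgma, Rgmb and Draxin), 14 had candidate regions, and each of the 14 had at least 1 that fell in the mutant. Of their 186 candidate regions 175 (94.1%) fell and none was called higher by limma at adjusted p or at an unadjusted p under 0.05; over all candidate regions 93.5% fell. In the authors' list were 86 of the 186 (46.2%), against 33.1% of all candidate regions, and the median difference was -19.3 points, against -16.6 points over all. Lingo1, a partner of the Nogo receptor, alone held 43 of the 186 candidate regions and 36 of the 86 listed ones. It reached -59.8 points. Rgma, a ligand of neogenin, reached -55.6 points, Dscam, a netrin receptor and adhesion molecule, -54.7 points, and Nrp2, the co-receptor of Sema3f, -46.9 points. The netrin receptor gene Dcc, the semaphorin co-receptor gene Nrp1, L1cam, Chl1 and Nrcam had no candidate region.

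Of 40 intracellular mediators of guidance signals, 36 had candidate regions, and in each of the 36 at least 1 fell. Of their 739 candidate regions 689 (93.2%) fell. In the authors' list were 171 (23.1%), against 33.1% of all candidate regions, and the median difference was -15.2 points, against -16.6 points over all. None was called higher by limma at adjusted p or at an unadjusted p under 0.05, and 1 was on a logit scale. Enah, an actin regulator at the growth cone, reached -60.6 points, and Mical3, of the oxidoreductase family downstream of plexins, had 21 listed regions. Tiam1, an exchange factor for Rac, had the most candidate regions, 112, of which 99 fell. For both lists the share that fell lay near the 93.5% of all candidate regions. The share in the authors' list was above that of all regions for the co-receptors and cues, where Lingo1 held 36 of the 86 listed regions. It was below that of all regions for the mediators. These differences were not tested.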

How the data were processed

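Lineage-negative bone marrow DNA of 12 samples was sequenced in paired-end mode with 100 bp reads after conversion with either of 2 kits, per the labels' protocols. The sources used here do not say whether a column merges both kits. Coordinates are on mm10, per the submitters' processing notes, and are printed as deposited. The file names point to metilene as the region caller, with the aligner and the tool that called methylation not given in the sources used here.

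Levels were deposited by the authors as a fraction from 0 to 1 in 6 columns for 107115 candidate regions, multiplied here to percent. Their lists also give, as deposited, a difference of means (a score), the CpG count, a q-value of metilene and the distance to each gene. All 1656 member values were whole percentages (tolerance 0.02) when multiplied by 1 CpG fewer than the deposited count, against 8.70% at the full count, so the replicate levels behave as means over 1 CpG fewer than printed. Among members, the authors' group means lay up to 4.71 points (mutant) and 5.46 points (wild type) from the column means, which are the ones printed. No coverage was given, so no coverage minimum was applied.

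The selection gave 280 rows for 276 regions, since Ntn5 regions stand under 3 gene identifiers, and 11 regions are also listed under another gene. Unc50 also matches the pattern and had no listed region. Tests used limma 3.58.1 (R 4.3.3) on percent levels of each candidate region, adjusted over all regions by Benjamini-Hochberg at 0.05, after a check on simulated data. Gene spans, promoter windows and microRNAs were from RefSeq (GRCm38.p6), matched by symbol. Members, lists and tests were chosen with earlier results of these data known. Regions named were the 10 greatest losses, the greatest per family, the 5 with most CpGs, those within 1000 bp of a start, the 3 on each side of the 20-point limit, the extremes of wild-type level and the 3 widest mutant spreads; others were chosen after their values were seen. Alternatives left out each column, used a replicate block, a logit scale, a trend with robust prior, other distances, spans and weights. Python 3.11.15, numpy 2.4.6, pandas 2.3.3 and matplotlib 3.10.9 were used.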

Additional observations from a re-analysis of the deposited data

How the results depend on the processing

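The 276 regions were called lower by limma in each of the alternative fits. Over all 107115 candidate regions these fits called 95623 to 103086 lower. The members were listed on this contrast, so nothing is read from their full count. None of the 43 named regions reversed or moved by over 1.5 times. Keeping only listed regions with a metilene q under 0.05 left 88 regions at 29 genes with a mean difference of -34.6 points. Leaving out semaphorins and plexins left 178 regions at 24 genes. The median over regions was -27.1 points in place of the mean of -29.5. When a call also had to reach 20 points, 36877 candidate regions were called lower and 4 higher, and the calls lower were 8 for unlisted family regions, 88 for co-receptors and cues and 177 for mediators, since the list's limit is the same 20 points. On a logit scale 171 candidate regions were called higher, against 52 in percent, with 1 among unlisted family regions and 1 among mediators. Leaving out each column in turn gave 30 (without wild-type replicate 1) to 63 regions called higher; the cause was not tested.

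Deviations of same-numbered columns correlated at 0.0372, 0.00489 and 0.04998 (Pearson, over candidate regions, which are not independent). Those of differently numbered columns correlated between -0.0507 and 0.0117. All were weak, but such values cannot decide whether same-numbered samples were handled together, so pairing was neither assumed nor excluded. With the replicate block 99903 candidate regions were called lower and 70 higher, among them 452 unlisted family, 175 co-receptor and 692 mediator regions lower, and the mean difference of the members was -29.5 points.

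With 3 columns per genotype and no coverage, the counting error of a level is unknown, and a region with few reads cannot be told from a deep one.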
